A study of Mus musculus with 18 samples.

Results

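The 37 genes of the mouse mitochondrial genome were examined in RNA labelled as colon tumor, from serine-free diets. They were chosen by name, as every row of the deposited table of 54354 genes whose symbol begins with mt-, and comprise 13 mRNAs, 2 ribosomal RNAs and 22 transfer RNAs. Of these, 15 had counts in all 10 libraries used here, and the 22 transfer RNAs had none in any of them. The compared libraries are 5 from a serine-free high fat diet (SF_HFD) and 5 from a serine-free control diet (SF_CD), so that both groups lacked dietary serine and differed in fat. The labels give colon, tumor and a wild type genotype for each library, and name no strain, age or tumor model. The extraction protocol names organoids, which are cultured epithelial structures, whereas the design text describes sorted live cells, and it is not clear which of them these libraries hold. The series holds 18 libraries in all. In the other 8, from a high fat diet (5) and a control diet (3) with serine, the 37 rows held 1 count among 45929948. Earlier work on these data found that the row names do not name the genes of these columns. This count thus says nothing of their mitochondrial RNA, and these 8 libraries were not analysed here.

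The mitochondrial genome is a small circle that is copied into RNA from both strands as long precursors. Transfer RNAs lie between most of its other genes, and cutting them out releases the mRNAs and ribosomal RNAs. All of its mRNAs code for subunits of the respiratory chain or of ATP synthase, which work together with many more subunits made from nuclear genes. Serine is the main source of one-carbon units in mitochondria, where these are used to modify certain transfer RNAs and to formylate the methionine that starts translation. The libraries were made by poly(A) selection, which captures an RNA by its tail. The annotated ends of the 13 mRNAs are shown in genome order because, for most of them, the tail is added at or near that end. Capitals mark the annotated stop codon, or the single T that the tail completes to one in mt-Co3, mt-Nd4 and mt-Cytb (3 of 13). The annotated ends of mt-Nd1 (3707) and mt-Nd2 (4951) lie inside the transfer RNAs mt-Ti (from 3706) and mt-Tw (from 4950) on the same strand. The annotated end of mt-Atp6 (8607) is also the first base of mt-Co3 on that strand. For mt-Nd1, mt-Nd2 and mt-Atp6 the capitals thus show the annotation and not the tailed end. Where the tails lie was not tested for any of the mRNAs. The sequences are from GENCODE M21 on mm10, chromosome M.
mt-Nd1: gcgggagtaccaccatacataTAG
mt-Nd2: ctagccccccaactaattaccTAG
mt-Co1: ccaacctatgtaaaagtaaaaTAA
mt-Co2: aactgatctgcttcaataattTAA
mt-Atp8: cctcattcattaccccaacaaTAA
mt-Atp6: ctatatctacatgataatacaTAA
mt-Co3: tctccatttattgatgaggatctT
mt-Nd3: aaaggattagaatgaacagagTAA
mt-Nd4l: aatctcaacctactacaatgcTAA
mt-Nd4: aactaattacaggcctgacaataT
mt-Nd5: ttatactcaattaatctcgagTAA
mt-Nd6: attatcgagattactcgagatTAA
mt-Cytb: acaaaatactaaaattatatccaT
mt-Nd6 is the 1 mRNA whose gene is annotated on the minus strand. In human cells its mRNA lacks a poly(A) tail. The exceptions to a tail at the annotated end include mt-Atp8 and mt-Nd4l, which end inside mt-Atp6 and mt-Nd4, with which they share an RNA (overlaps of 43 and 7 bases).

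The libraries ranged from 727610 to 12146933 counts in SF_HFD and from 499774 to 12841275 in SF_CD. The SF_CD libraries 1 and 5 and the SF_HFD library 5 were under 1000000. The cytosolic ribosomal RNA row took 1.26% to 3.52% of the counts in SF_HFD. In SF_CD it took 15.1% in library 1, 7.82% in library 5 and 0.754% to 1.27% in the other 3 libraries. Malat1, a nuclear RNA, took 0.526% to 1.18% in SF_HFD, against 12.1% in the SF_CD library 1 and 0.409% to 1.66% in the other SF_CD libraries. All 9 epithelial markers examined were detected in every library. Their summed level reached 4753 to 11323 CPM (TMM-normalised counts per 1000000) in SF_HFD and 2494 to 6444 CPM in SF_CD. The summed levels of 8 smooth muscle markers were 168 to 258 CPM in SF_HFD and 3.08 to 24.4 CPM in SF_CD, and those of 8 fibroblast markers 69.7 to 136 CPM and 12.1 to 93.5 CPM. For 8 leukocyte markers they were 18.4 to 48.4 CPM in SF_HFD and 32.8 to 105 CPM in SF_CD, for 4 endothelial markers 0 to 4.3 CPM and 3.64 to 33.8 CPM, and for 4 hemoglobin genes 0 to 0.377 CPM and 0 to 2.96 CPM. Enough counts to be tested were found for 9 epithelial, 6 smooth muscle, 6 fibroblast, 3 leukocyte, 1 endothelial and 0 hemoglobin genes. Of these, 4 were called, all higher in SF_HFD (edgeR adjusted p 0.000156 to 0.0159): Acta2, Actg2 and Myl9 of smooth muscle and Postn of fibroblasts. Over all 11780 genes tested, 0.153% were called higher. Cd3e and Hbb-bt were at 0 in all 10 libraries. The part of these other cells in the mitochondrial values was not tested.

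Mitochondrial RNA took a similar part of the counts in every SF_HFD library and a varying part in SF_CD. Its share was 5.43%, 6.6%, 6.23%, 5.72% and 5.86% in the SF_HFD libraries 1 to 5 (5.97% ± 0.455, SD, n = 5). In the SF_CD libraries 1 to 5 it was 8.29%, 4.31%, 3.88%, 5.5% and 9.82% (6.36% ± 2.59, SD, n = 5). The SF_HFD values lay between the SF_CD libraries 2 and 3 below and the SF_CD libraries 1 and 5 above, and the groups overlapped. In such bulk samples, fewer mitochondria-rich cells and less mitochondrial RNA per cell cannot be told apart. The difference of the means was -0.394 percentage points, and 1.4 without the SF_CD libraries 1 and 5, so its direction rests on these 2 libraries. The mRNAs alone took 3.91%, 2.93%, 3.9%, 3.49% and 4.14% in SF_HFD and 1.37%, 3.23%, 2.87%, 3.86% and 3.1% in SF_CD. Here the SF_CD library 1 was the lowest of all 10, while the SF_CD library 5 lay among the others. Counts of Gm29216, a nuclear copy of the end of mt-Co1 described below, are left out of these shares. They are also left out of the mitochondrial shares and ratios below, unless stated. Gm29216 was at 3487 to 5372 CPM in SF_HFD and 2288 to 3228 CPM in SF_CD. The difference in mitochondrial share with it added was not determined.

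**Figure D1:**
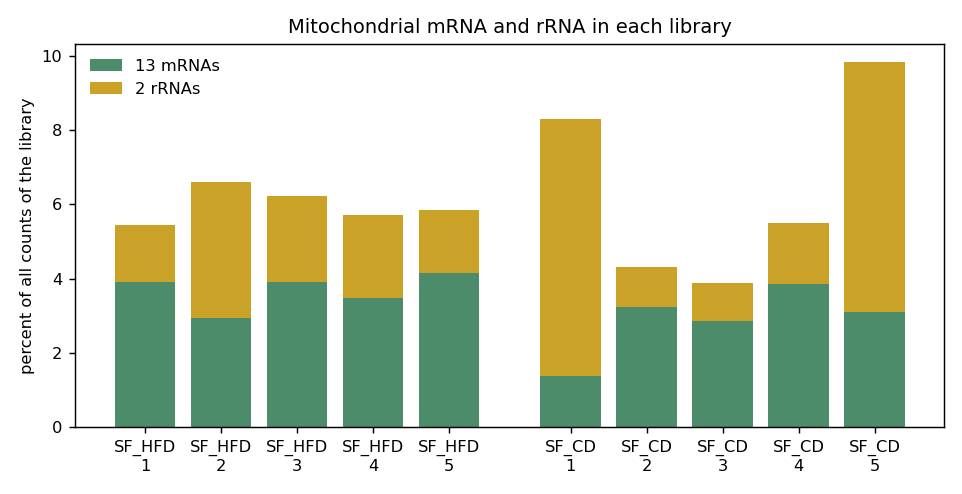
Percent of all counts of each library that fell on the 13 mitochondrial mRNAs (lower part of each bar) and the 2 mitochondrial ribosomal RNAs (upper part), for the 5 SF_HFD and the 5 SF_CD libraries. The ribosomal part reaches 6.92% and 6.72% in the SF_CD libraries 1 and 5 and lies between 1.02% and 3.67% in the other 8.

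The 2 ribosomal RNAs, which form the core of the mitochondrial ribosome, varied more between SF_CD libraries than the mRNAs did (SD of the share of all counts 3.06 against 0.923 percentage points, n = 5). mt-Rnr1, the RNA of the small subunit (ENSMUSG00000064337, mm10 chromosome M, 70 to 1024), was at 2356, 3511, 2628, 2874 and 1890 CPM in the SF_HFD libraries 1 to 5. In the SF_CD libraries 1 to 5 mt-Rnr1 was at 20550, 1739, 2119, 3665 and 18274 CPM. The SF_CD libraries 1 and 5 were far above all others, and the other 3 spanned nearly the same range as SF_HFD. Its log2 fold change of SF_HFD over SF_CD was -1.80 ± 0.60 (SE, edgeR adjusted p = 0.253), and 0.08 ± 0.28 without the SF_CD libraries 1 and 5 (edgeR adjusted p = 0.918). mt-Rnr2, the RNA of the large subunit (ENSMUSG00000064339, chromosome M, 1094 to 2675), was at 14346, 27321, 20701, 17439 and 13856 CPM in SF_HFD and at 57386, 9769, 9302, 12355 and 50284 CPM in SF_CD. With the SF_CD libraries 1 and 5 set aside, every SF_HFD library was above the remaining SF_CD libraries. These 2 libraries were set aside after their values were seen, and the share of all genes that separate in this smaller set was not determined. The log2 fold change of mt-Rnr2 was -0.57 ± 0.50 (edgeR adjusted p = 0.707), and 0.84 ± 0.27 without these 2 libraries (edgeR adjusted p = 0.218), neither past the threshold of 0.05. Ribosomal RNA made up 28%, 55.6%, 37.3%, 38.9% and 29.3% of the mitochondrial counts in SF_HFD and 83.5%, 25.1%, 26.2%, 29.9% and 68.5% in SF_CD. The SF_CD libraries 1 and 5 also had the highest cytosolic ribosomal RNA, and the part of this in the mitochondrial values was not tested.

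In these poly(A)-selected libraries, the counts of the 2 ribosomal RNAs, neighbours on the same precursor, stood in different proportions in the 2 groups. How far these counts follow the amounts in the cells was not tested. The counts of mt-Rnr2 were 6.09, 7.78, 7.88, 6.07 and 7.33 times those of mt-Rnr1 in the SF_HFD libraries 1 to 5. In the SF_CD libraries 1 to 5 they were 2.79, 5.62, 4.39, 3.37 and 2.75 times as high. The lowest ratios were in the SF_CD libraries 1 and 5, which also had the most cytosolic ribosomal RNA (15.1% and 7.82% of all counts). The mean ratio was 7.03 ± 0.892 in SF_HFD and 3.78 ± 1.22 in SF_CD (SD, n = 5 each), and all SF_HFD libraries were above all SF_CD libraries. The groups also did not overlap among the libraries over 1000000 counts, with ratios of 6.95 ± 1.01 in SF_HFD (n = 4) and 4.46 ± 1.12 in SF_CD (n = 3). In this smaller set, 29 of the 105 ratios between 2 detected members (27.6%) had groups that did not overlap, so separation there is common. The ratio was chosen after its values were seen and is given without a test. Over all 10 libraries, 2 of the 105 ratios (1.9%) had groups that did not overlap. The other was that of mt-Nd1 to mt-Co3, at 0.302 to 0.386 in SF_HFD and 0.432 to 0.644 in SF_CD.

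**Figure D2:**
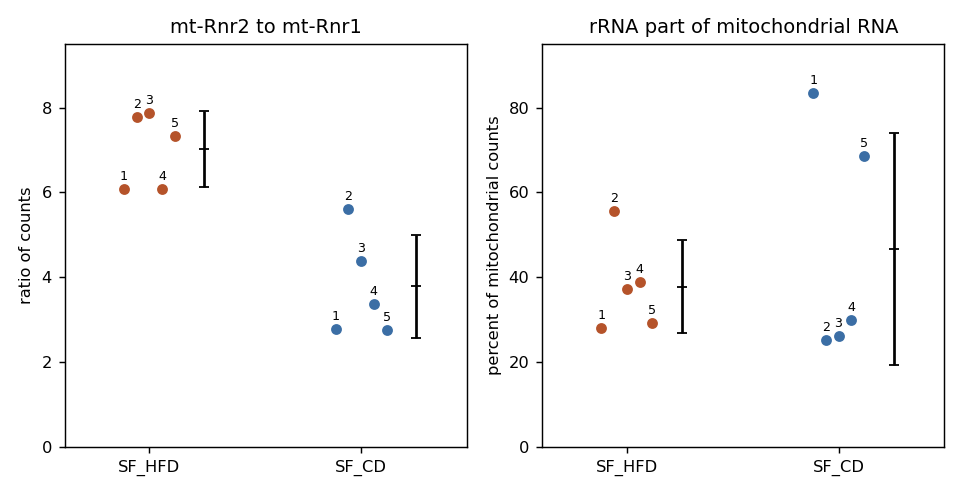
Ratio of mt-Rnr2 to mt-Rnr1 counts (left) and percent of mitochondrial counts on the 2 ribosomal RNAs (right) in each library, numbered by replicate, with the mean and SD of each group (n = 5). The ratios of the SF_HFD libraries, 6.07 to 7.88, lie above those of the SF_CD libraries, 2.75 to 5.62, while the ribosomal share overlaps between the groups.

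Levels of the 15 detected genes differed widely per length. Over the 10 libraries, mt-Rnr2 had the highest mean level per kilobase (14713 CPM per kilobase), followed by mt-Co3 (11246), mt-Atp6 (10447), mt-Rnr1 (6241), mt-Cytb (6221), mt-Nd1 (3777) and mt-Co2 (3528). mt-Nd4 (1077), mt-Nd2 (770) and mt-Co1 (584) were lower, and the lowest were mt-Atp8 (373), mt-Nd6 (313), mt-Nd3 (234), mt-Nd4l (185) and mt-Nd5 (88.2 CPM per kilobase). The place of mt-Co1 is that of its own row only. A nuclear copy of its last part, Gm29216, described below, held more counts than this row in every library. The places of the ribosomal RNAs rest on the SF_CD libraries 1 and 5. Over the other 8 libraries, mt-Co3 (12667 CPM per kilobase) and mt-Atp6 (11054) were above mt-Rnr2 (9884), and mt-Rnr1 (2720) was below mt-Cytb (6877), mt-Nd1 (4014) and mt-Co2 (3580). Genes that share an RNA did not share a level. mt-Atp6 had 24.5 to 35.6 times the counts per kilobase of mt-Atp8 in SF_HFD and 16.6 to 38.4 times in SF_CD. mt-Nd4 had 4.78 to 7.71 times those of mt-Nd4l in SF_HFD and 4.03 to 9.99 times in SF_CD. mt-Atp8 (204 bases), mt-Nd4l (297) and mt-Nd3 (348) are the shortest of the 13 mRNAs, and the part of transcript length and of the estimate that divides shared reads was not tested.

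**Figure D3:**
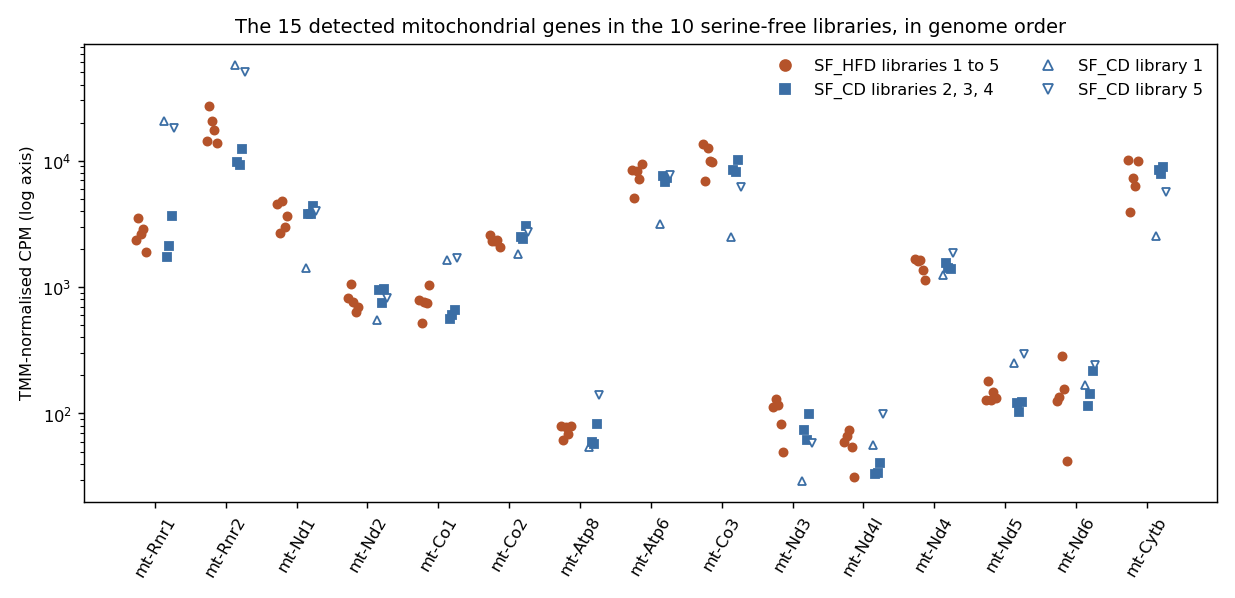
TMM-normalised CPM (log axis) of the 15 detected mitochondrial genes, in genome order, with SF_HFD libraries left of SF_CD libraries for each gene and the SF_CD libraries 1 and 5 as open triangles. The open triangles lie far above the other points for mt-Rnr1 (20550 and 18274 CPM) and mt-Rnr2 (57386 and 50284 CPM), and the SF_CD library 1 lies below them for mt-Nd1 (1411 CPM) and mt-Atp6 (3172 CPM).

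The 3 mRNAs of complex IV, which passes electrons to oxygen, differed in their patterns. mt-Co3 (ENSMUSG00000064358, chromosome M, 8607 to 9390) was at 13514, 6955, 12635, 9880 and 9678 CPM in the SF_HFD libraries 1 to 5, and at 2504, 8499, 8071, 10216 and 6217 CPM in the SF_CD libraries 1 to 5. The groups overlapped, with the SF_CD library 1 the lowest and the SF_HFD libraries 1 and 3 the highest. Its log2 fold change was 0.57 ± 0.36 (edgeR adjusted p = 0.56), and 0.24 without the SF_CD libraries 1 and 5. Among the mitochondrial mRNAs, mt-Co3 held 29.6% ± 2.81 of the counts in SF_HFD and 22.6% ± 4.49 in SF_CD (SD, n = 5 each). mt-Co2, which takes up electrons from cytochrome c, was at 2060 to 2582 CPM in SF_HFD and 1819 to 3065 CPM in SF_CD, with a log2 fold change of -0.10 ± 0.26.

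mt-Co1, the catalytic core of complex IV (ENSMUSG00000064351, chromosome M, 5328 to 6872), cannot be read from its own row. That row was at 791, 518, 759, 754 and 1048 CPM in the SF_HFD libraries 1 to 5 and at 1641, 556, 602, 664 and 1696 CPM in the SF_CD libraries 1 to 5. A nuclear pseudogene, Gm29216 (ENSMUSG00000101249, mm10 chromosome 1, 24615706 to 24616197), held more counts than mt-Co1 in every library. The last 483 of the 492 bases of its transcript align to the last 483 bases of mt-Co1 (positions 1063 to 1545, counted from the first base of mt-Co1) with 1 difference, A1066T, so reads from that end fit both. The windows round this position are shown because they hold the 1 base, in capitals, that tells the aligned parts apart.
mt-Co1: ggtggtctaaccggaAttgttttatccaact
Gm29216: ggattggcaggaTttgttttatccaact
Gm29216 was at 3487, 5057, 4692, 4521 and 5372 CPM in the SF_HFD libraries and at 2288, 3228, 2867, 2587 and 2666 CPM in the SF_CD libraries, with all SF_HFD libraries above all SF_CD libraries (log2 fold change 0.76 ± 0.27, edgeR adjusted p = 0.283). Such separation was found for 3.65% of the 11780 genes tested. It took 81.5% to 90.7% of the sum of both rows in SF_HFD. In SF_CD it took 58.2% and 61.1% in libraries 1 and 5 and 79.6% to 85.3% in the other 3. The sum of both rows averaged 5400 ± 766 CPM in the SF_HFD libraries, against 3759 ± 429 CPM in the SF_CD libraries (SD, n = 5 each), and the groups overlapped between the SF_HFD library 1 (4278 CPM) and the SF_CD library 5 (4362 CPM). The log2 fold change of mt-Co1 was -0.41 ± 0.37 as deposited (edgeR adjusted p = 0.718) and 0.52 ± 0.26 with the counts of its near-identical copy added (edgeR adjusted p = 0.455). Adding the copy thus turned its direction, and neither value passed the threshold. A further 6 mRNAs have a nuclear copy in the annotation of which at least 90% of the 31-base words also occur in the gene itself, but these copies held at most 2 counts over the 10 libraries.

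**Figure D4:**
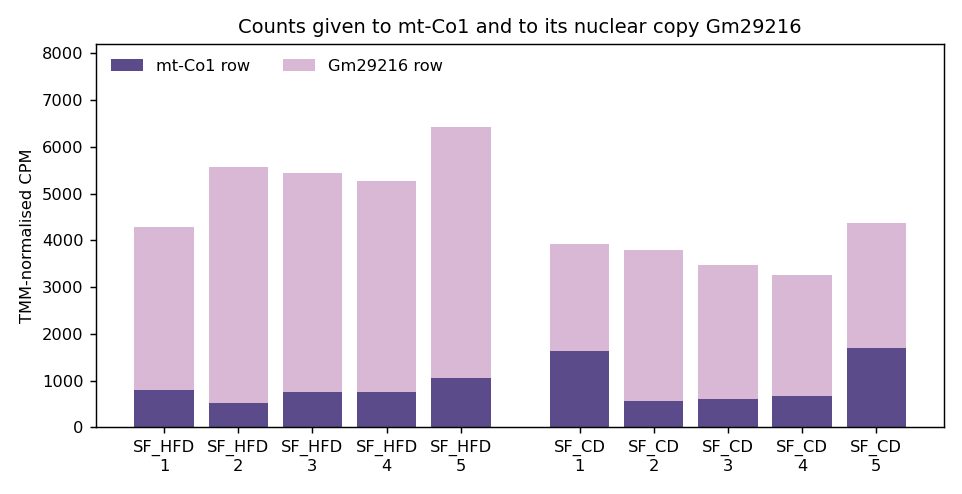
TMM-normalised CPM of the mt-Co1 row (lower part of each bar) and of the row of its nuclear copy Gm29216 (upper part) in each library. The sum is 4278 to 6420 CPM in SF_HFD and 3250 to 4362 CPM in SF_CD, and the mt-Co1 part is largest in the SF_CD libraries 1 and 5 (1641 and 1696 CPM).

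Of the ATP synthase genes, mt-Atp6, which forms part of the proton channel, was at 8479, 5050, 8334, 7146 and 9465 CPM in SF_HFD and at 3172, 7609, 6810, 7330 and 7748 CPM in SF_CD. The SF_CD library 1 was the lowest, and the remaining SF_CD libraries lay within the SF_HFD range. The log2 fold change of mt-Atp6 was 0.24 ± 0.31 (edgeR adjusted p = 0.825). mt-Atp8, a small subunit beside it, was at 61.8 to 79.6 CPM in SF_HFD and 54.1 to 140 CPM in SF_CD. Cytochrome b of complex III, mt-Cytb (ENSMUSG00000064370, chromosome M, 14145 to 15288), was at 10112, 3902, 7243, 6325 and 9990 CPM in SF_HFD and at 2532, 8462, 7919, 8985 and 5693 CPM in SF_CD. Both groups varied, with the SF_HFD library 2 and the SF_CD library 1 low. The fitted log2 fold change of mt-Cytb was 0.16 ± 0.37 (edgeR adjusted p = 0.912), and it turned to -0.29 ± 0.29 with the 7 libraries over 1000000 counts (edgeR adjusted p = 0.629).

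The 7 mRNAs of complex I, which oxidises NADH, held 18.6% ± 3.32 of the mitochondrial mRNA counts in SF_HFD and 21.1% ± 2.33 in SF_CD (SD, n = 5 each). mt-Nd1, the most abundant of them (ENSMUSG00000064341, chromosome M, 2751 to 3707), was at 4579, 2683, 4780, 2980 and 3678 CPM in SF_HFD. In SF_CD mt-Nd1 was at 1411, 3818, 3803, 4412 and 4001 CPM, with library 1 far below the other 4. The log2 fold change of mt-Nd1 was 0.10 ± 0.33 (edgeR adjusted p = 0.944). mt-Nd2 (-0.03 ± 0.28) and mt-Nd4 (-0.01 ± 0.27), which form part of the proton-pumping arm, had log2 fold changes near 0. mt-Nd3, at 49.3 to 129 CPM in SF_HFD and 29.3 to 98.9 CPM in SF_CD, had the largest positive log2 fold change of the members (0.59 ± 0.37, edgeR adjusted p = 0.561). mt-Nd4l was at 31.6 to 73.8 CPM in SF_HFD and at 56.4, 33.3, 33.6, 40.6 and 99.3 CPM in the SF_CD libraries 1 to 5. Its log2 fold change was 0.17 ± 0.38, and 0.82 ± 0.22 with the 7 libraries over 1000000 counts (edgeR adjusted p = 0.161). mt-Nd5, the longest mRNA at 1824 bases, was at 128 to 181 CPM in SF_HFD and at 252, 120, 102, 124 and 294 CPM in SF_CD. mt-Nd6, whose gene overlaps the end of mt-Nd5 by 14 bases on the other strand, was at 41.7 to 284 CPM in SF_HFD and 114 to 241 CPM in SF_CD.

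Within the mRNA pool, the SF_CD libraries 1 and 5 had the highest shares of mt-Nd5 and of the mt-Co1 row. mt-Nd5 held 1.64% and 0.931% of the mitochondrial mRNA counts in these 2 libraries, against 0.296% to 0.733% in SF_HFD and 0.315% to 0.349% in the other SF_CD libraries. For the mt-Co1 row these shares were 10.6% and 5.37%, against 1.84% to 2.75% and 1.62% to 1.87%. mt-Cytb was at 16.4% and 18% in the SF_CD libraries 1 and 5, against 23.9% to 24.7% in the other SF_CD libraries. These values lay inside the SF_HFD range of 15.8% to 26.2%, whose lowest was library 2. With the counts of Gm29216 added to mt-Co1 and to the total, the shares were 22.2% and 12.7% in the SF_CD libraries 1 and 5. They were 9.2%, 18.8%, 12.4%, 14.5% and 14.8% in the SF_HFD libraries 1 to 5, so that with the copy added library 5 of SF_CD no longer stood apart. Actb, a nuclear mRNA, took 1.75% and 1.73% of all counts in the SF_CD libraries 1 and 5, against 0.252% to 0.408% in the other 8.

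Transfer RNAs decode the 13 mRNAs, and no count was given to any of the 22, which are 59 to 75 bases long. The limit that a count of 0 allows (3 counts a library) was 0.234 to 6 counts per 1000000 before normalisation. The mRNAs hold 240 serine codons of the form TCN, read by mt-Ts1, and 49 of the form AGY, read by mt-Ts2, among 3800 codons. The 2 serine transfer RNAs and that of methionine, mt-Tm, which serves both to start and to extend proteins, are shown. The serine transfer RNAs carry serine, and the methionine on mt-Tm is formylated with a one-carbon unit when it starts a protein. Other transfer RNAs that are modified with one-carbon units are not shown. Capitals mark the anticodon, and mt-Ts1 is on the minus strand of chromosome M (6870 to 6938), with mt-Ts2 (11613 to 11671) and mt-Tm (3845 to 3913) on the plus strand.
mt-Ts1: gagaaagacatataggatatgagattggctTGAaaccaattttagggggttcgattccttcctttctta
mt-Ts2: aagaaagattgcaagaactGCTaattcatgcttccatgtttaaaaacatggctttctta
mt-Tm: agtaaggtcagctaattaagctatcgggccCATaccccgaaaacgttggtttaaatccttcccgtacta
Their rows at 0 in these poly(A)-selected libraries say nothing of their amount in the cells.

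The comparison of SF_HFD with SF_CD asks how dietary fat bears on these genes where serine is lacking. Of the 15 members tested, 0 were called at an edgeR adjusted p under 0.05, against 38 of all 11780 genes tested (0.323%). At an unadjusted p under 0.05 there was 1 member with edgeR, mt-Rnr1, against 11.6% of all genes tested. There were 1 with DESeq2 and 2 with limma-voom, for which the share over all genes was not determined. After adjustment, 0 members were called by either of these tools. Over all genes, DESeq2 called 78 higher and 220 lower in SF_HFD, and limma-voom 100 and 73. The median log2 fold change was -0.03 over the 15 members (-1.80 to 0.59) and 0.02 over all genes tested. Among the 13 mRNAs, 6 were positive and 7 negative, between -0.41 and 0.59, with standard errors of 0.26 to 0.42. In none of the members were all SF_HFD libraries above or below all SF_CD libraries. With the 7 libraries over 1000000 counts, 11 of 15 log2 fold changes were positive, among them mt-Atp6 at 0.00 after rounding. Their median was 0.15, against 0.04 over all genes, and the share of all genes with a positive value was not determined here. In this setting 0 members were called, against 26 of the 12653 genes tested. Values that miss the threshold do not show that the groups are alike.

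**Figure D5:**
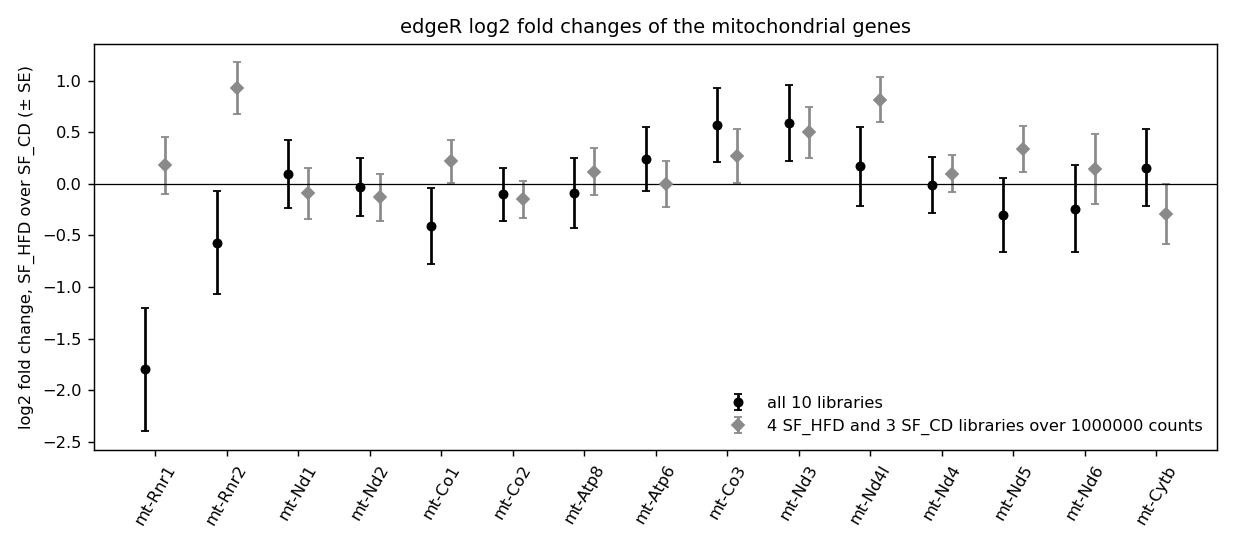
edgeR log2 fold change of SF_HFD over SF_CD, with its SE, for each of the 15 detected mitochondrial genes with all 10 libraries (circles) and with the 7 libraries over 1000000 counts (diamonds). mt-Rnr1 lies at -1.80 and 0.18 and mt-Rnr2 at -0.57 and 0.93 in the 2 settings, and no value passes the threshold.

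Nuclear genes that build or serve the mitochondrial system showed 0 calls among the 242 listed and tested, against 0.323% of all genes tested. Their median log2 fold change was 0.15, against 0.02 over all genes. Of the 242, 163 were positive, against 51.4% of all genes. In 6 of the 242 the groups did not overlap, against 3.65% of all genes. Cox7c (log2 fold change 0.77), Elac2 (1.16), Pus1 (1.32), Nsun2 (0.83) and Qrsl1 (1.0) were the 5 with higher values in SF_HFD. The level of 3 counts was 6 and 5.73 CPM before normalisation in the SF_CD libraries 1 and 5. The lowest SF_CD values of Elac2 (0 CPM), Pus1 (4.51 CPM) and Qrsl1 (3.89 CPM) were under it. Those of Cox7c (117 CPM) and Nsun2 (35.2 CPM) were above it. Mrps5, of the small ribosomal subunit, separated the other way, at 117 ± 36.6 CPM in SF_HFD against 225 ± 57.6 CPM in SF_CD (log2 fold change -0.93 ± 0.32, edgeR adjusted p = 0.284). Among respiratory subunits, none of 37 of complex I (median 0.10), 4 of complex II (0.13), 9 of complex III (0.25), 11 of complex IV (0.23) and 16 of ATP synthase (0.00) was called. Ndufa13 and Ndufa7 of complex I, Sdhb and Sdhd of complex II, Uqcrq and Uqcr11 of complex III, Ndufa4 and Cox4i1 of complex IV and Atp5j and Atp5l of ATP synthase had the most counts of their lists. Summed over complexes I, III, IV and ATP synthase, nuclear subunits took 3.47% ± 0.202 of the counts in SF_HFD and 2.92% ± 1.2 in SF_CD (SD, n = 5 each). The counts of the mitochondrial mRNAs were 1.06 ± 0.0957 times those of these nuclear subunits in SF_HFD and 1.05 ± 0.244 times in SF_CD. The SF_CD library 1, lowest in mitochondrial mRNA, was also lowest in nuclear subunits (1.09%), and without it the SF_CD mean was 3.38% ± 0.718 (n = 4). In the SF_CD libraries 2, 3 and 4 the nuclear share was 3.73% ± 0.174, above the SF_HFD mean, and the ratio was 0.89 ± 0.137, so the direction of the nuclear share turned without libraries 1 and 5.

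Genes that make and process mitochondrial RNA were likewise not called. In the lists for replication of the mitochondrial genome (10 genes), transcription (7), RNA processing and stability (19), RNA modification (22), the small (29) and large (49) ribosomal subunits, transfer RNA synthetases (20) and regulators (9), the medians lay between -0.10 and 0.25. Polrmt, the mitochondrial RNA polymerase, averaged 3.55 ± 1.41 CPM in SF_HFD, against 3.51 ± 0.863 CPM in SF_CD. Tfam, which packs and helps transcribe the genome, averaged 39.3 ± 5.14 CPM in SF_HFD, against 32.6 ± 16.4 CPM in SF_CD. Polg, its DNA polymerase, averaged 8.9 ± 3.57 CPM in SF_HFD, against 10.1 ± 5.8 CPM in SF_CD (SD, n = 5 each). Lrpprc, which with Slirp protects mitochondrial mRNAs, averaged 17.7 ± 8.54 CPM in SF_HFD, against 8.78 ± 4.58 CPM in SF_CD (log2 fold change 0.93 ± 0.46, edgeR adjusted p = 0.443). Slirp averaged 234 ± 38.9 CPM in SF_HFD, against 237 ± 136 CPM in SF_CD. Elac2, which trims the end of transfer RNAs, averaged 12.7 ± 2.04 CPM in SF_HFD, against 4.95 ± 3.41 CPM in SF_CD, without overlap (log2 fold change 1.16 ± 0.49, edgeR adjusted p = 0.371). The level of 3 counts, before normalisation, was 6 and 5.73 CPM in the SF_CD libraries 1 and 5 and 4.12 CPM in the SF_HFD library 5. The lowest SF_CD values of Lrpprc (2.25 CPM) and Elac2 (0 CPM) were under it, as was the SF_CD range of Polrmt (2.2 to 4.51 CPM) in libraries 1 and 5. The part of such low counts in these differences was not tested. For Pnpt1, a mitochondrial RNA nuclease, the log2 fold change was -0.10 ± 0.59. Ppargc1a, a coactivator of mitochondrial biogenesis, averaged 9.58 ± 3.8 CPM in SF_HFD, against 6.29 ± 6.17 CPM in SF_CD. The most abundant genes of these lists by total counts were Ssbp1 and Tfam (replication), Mterf3 and Tfb2m (transcription), Slirp and Hsd17b10 (processing), Mthfd2 and Nsun2 (modification), Mrps14 and Mrps26 (small subunit), Mrpl33 and Mrpl28 (large subunit), Rars2 and Lars2 (synthetases) and Myc and Nrf1 (regulators).

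The enzymes that carry serine-derived one-carbon units to mitochondrial transfer RNAs had log2 fold changes within their errors or short of the threshold. Shmt2, which splits serine in mitochondria, averaged 40.6 ± 6.03 CPM in SF_HFD, against 37 ± 21.6 CPM in SF_CD (log2 fold change 0.07 ± 0.42). Mthfd2, the next enzyme of the pathway, averaged 84.9 ± 10.8 CPM in SF_HFD, against 107 ± 20.8 CPM in SF_CD (-0.34 ± 0.30). Mtfmt, which formylates the starting methionine, had a log2 fold change of 0.40 ± 0.51, and Mto1 and Gtpbp3, which modify transfer RNA anticodons, had -0.32 ± 0.64 and 0.89 ± 0.64. Pus1, a pseudouridine synthase, averaged 23.5 ± 8.12 CPM in SF_HFD, against 8.82 ± 3.65 CPM in SF_CD, without overlap. The log2 fold change of Pus1 was 1.32 ± 0.40 (edgeR adjusted p = 0.208). Its lowest SF_CD value (4.51 CPM) was under the level of 3 counts in the SF_CD libraries 1 and 5 (6 and 5.73 CPM before normalisation). Lars2, the mitochondrial leucine synthetase, averaged 36 ± 17.5 CPM in SF_HFD, against 239 ± 303 CPM in SF_CD (log2 fold change -2.70 ± 0.93, edgeR adjusted p = 0.283). It was at 640 and 491 CPM in the SF_CD libraries 1 and 5, those with the most ribosomal RNA, and at 19.1 to 24.9 CPM in libraries 2, 3 and 4 of that group.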

How the data were processed

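The authors deposited 1 table of counts per gene as whole numbers. The submitters' processing notes name Salmon 1.3.0, which estimates counts, and the mouse build mm10. Which annotation was used, and how transcripts were summed, is not given in the sources used here. A read that matches several transcripts is divided between them by estimate, so genes with near-identical copies are uncertain. Libraries were poly(A)-selected and strand-specific, per the labels' protocols.

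Columns were matched to samples by library name and grouped by the diet in the titles. Nothing in the labels says that libraries of a group are separate animals or cultures, and the p-values therefore cover the spread of these libraries, which may be technical. Counts of the 10 serine-free libraries were tested over all genes with edgeR 4.0.16 (quasi-likelihood, robust, TMM, filterByExpr, R 4.3.3) and p-values adjusted by Benjamini-Hochberg (threshold 0.05). The SE is the log2 fold change divided by the root of F. DESeq2 1.42.0 and limma-voom (limma 3.58.1) with quality weights were alternatives, as were other normalisations and filters, a replicate block, leaving out libraries and adding nuclear copies. The test was tried on simulated counts. Copies were found as annotated transcripts sharing 31-base words with a mitochondrial gene, and coordinates are from GENCODE M21, which holds 94.7% of the row identifiers. Floors (3 counts) cover counting error only. The members and lists were chosen with earlier results of these data known. The text names every detected member and, in the nuclear lists, called genes or else the 2 with the most counts, and a fixed set of mitochondrial regulators. Cox7c, Elac2, Pus1, Qrsl1, Mrps5, the 4 called markers and the copy Gm29216 were named after their values were seen.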

Additional observations from a re-analysis of the deposited data

Results flagged for a closer look

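Among 44 groups of 5 values examined for a library far from the others, 2 held one. Chance flags about 1 group in 20, so 2 of 44 is about the number that chance gives. mt-Nd1 was at 1411 CPM in the SF_CD library 1, against 3803 to 4412 CPM in the other 4 libraries of the group. mt-Atp6 was at 3172 CPM in the same library, against 6810 to 7748 CPM. This library also held the most ribosomal RNA and Malat1, and the part of these in the 2 values was not tested.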

How the results depend on the processing

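No member was called in any of the 21 other settings, and the adjusted p of mt-Rnr1 lay between 0.0679 (DESeq2) and 0.918 (without the SF_CD libraries 1 and 5, a setting chosen after seeing the data). In 3 of these settings another member had the smallest adjusted p: mt-Nd4l with limma-voom (0.153) and with the 7 libraries over 1000000 counts (0.161), and mt-Rnr2 without the SF_CD libraries 1 and 5 (0.218). Library depth and the spread of SF_CD limit these comparisons, since 3 of the 10 libraries were under 1000000 counts.

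Over all genes, 18 were higher and 20 lower in SF_HFD. The counts were 78 and 220 with DESeq2 and 100 and 73 with limma-voom. The number lower was 54 with no filter, 5 with a stricter filter (at least 10 counts in 5 libraries), 10 with the 7 libraries over 1000000 counts and 8 without the SF_CD libraries 1 and 5. Leaving out 1 library at a time gave 10 to 26 higher and 6 to 62 lower, the lowest number lower without the SF_HFD library 4 and the highest without the SF_CD library 2. With the replicate block, 11 were higher and 11 lower. The numbers do not pair the libraries: the correlation of same-numbered libraries was -0.211 to 0.136, and 2 of 10 libraries correlated best with their own number.

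The difference in mitochondrial share (SF_HFD minus SF_CD, -0.394 percentage points) was 0.793 for the 13 mRNAs only, 1.43 with the 7 libraries over 1000000 counts and 1.4 without the SF_CD libraries 1 and 5, and -1.01 to 0.471 leaving out 1 library at a time, turning positive without the SF_CD library 1 (0.0869) or 5 (0.471). The difference in the rRNA share of mitochondrial counts (-8.82) was 12.9 with the 7 libraries over 1000000 counts and 10.7 without the SF_CD libraries 1 and 5, and -14.2 to 0.391 leaving out 1 at a time, positive without the SF_CD library 1. The cause was not tested. The counts of Gm29216 are left out of both differences.

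Log2 fold changes that changed sign were as follows. With the 7 libraries over 1000000 counts, they were 0.18 for mt-Rnr1, 0.93 for mt-Rnr2, -0.09 for mt-Nd1, 0.22 for mt-Co1, 0.12 for mt-Atp8, 0.10 for mt-Nd4, 0.34 for mt-Nd5, 0.15 for mt-Nd6 and -0.29 for mt-Cytb. Without the SF_CD libraries 1 and 5, they were 0.08, 0.84, -0.10, 0.34, 0.14, 0.02 and 0.31 for mt-Rnr1, mt-Rnr2, mt-Nd1, mt-Co1, mt-Atp8, mt-Nd4 and mt-Nd5, and -0.18 for mt-Cytb. With limma-voom, they were 0.53 for mt-Rnr2, 0.19 for mt-Co1, 0.20 for mt-Atp8, 0.00 for mt-Nd4, 0.15 for mt-Nd5, 0.21 for mt-Nd6 and -0.06 for mt-Cytb. With no filter, mt-Nd2 was at 0.01 and mt-Nd4 at 0.04, and with the nuclear copies added mt-Co1 was at 0.52. Leaving out 1 library at a time, mt-Nd1 ranged from -0.10 to 0.20, mt-Nd2 from -0.16 to 0.03, mt-Nd4 from -0.07 to 0.07, mt-Atp8 from -0.18 to 0.20 and mt-Cytb from -0.05 to 0.32. The other normalisations and the replicate block changed no sign.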

Other observations

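As a description, the 6 nuclear genes whose log2 CPM ran most like the summed mitochondrial mRNAs over the 10 libraries, among 3496 genes at a mean log2 CPM of at least 5, were Ube2v2, Ccnh, Ciapin1, Supt4a, Psmd6 and Timm17a. Pearson's r was 0.96 to 0.97 over the 10 libraries and 0.86 to 0.96 without the SF_CD libraries 1 and 5. These points share library depth and normalisation, the SF_CD library 1 is the lowest in mitochondrial mRNA, and the genes were picked for this value.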
